A study of Capra hircus with 6 samples.

Results

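MEF2A, MEF2C and MEF2D and the class IIa histone deacetylases HDAC4, HDAC5, HDAC7 and HDAC9 were followed in the hypothalamus of goats before and at puberty. These 7 genes were chosen by name, by their NCBI goat symbols, out of 20225 genes with expression values, and all 7 were measured. Hypothalamic RNA came from female Anhuai goats kept under the same conditions. The pubertal group held 3 goats of 4.5 to 5 months and the prepubertal group 3 goats of 2.5 to 3 months, with 1 library per goat. No treatment, transgene or selected cell population was involved. Age and pubertal stage therefore cannot be told apart, and a whole tissue cannot tell fewer cells of a type from less RNA per cell.

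MEF2 proteins are transcription factors of the MADS-box family that bind A/T-rich sites in promoters and enhancers. They drive muscle genes and, in neurons, genes that follow electrical activity and shape synapses. Class IIa histone deacetylases bind MEF2 proteins in the nucleus, have little deacetylase activity of their own, and recruit a co-repressor complex with HDAC3 to the bound genes. Kinases such as the calcium/calmodulin-dependent kinases, protein kinases D and the salt-inducible kinases phosphorylate them, 14-3-3 proteins then hold them in the cytoplasm, and MEF2 targets are freed. Calcineurin and other phosphatases act in the opposite direction. Much of this switch works through phosphorylation and location in the cell, which RNA levels do not measure.

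The values were FPKM, in which sequenced fragments are divided by transcript length and by the size of the library, so that levels of different genes can be compared per length. Values of all transcripts of a gene were added to give its level in a library. limma tested the stages on log2(FPKM + 1) in every gene with a mean of at least 0.1 FPKM, with Benjamini-Hochberg adjustment across all these genes. Differences are pubertal minus prepubertal, and on this scale they understate the change of genes with low values. Read counts are not part of the tables, and the number of fragments behind each value was not derived.

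The tissue label was set against marker genes. Of 14 hypothalamic markers 10 could be matched to a gene. PMCH, the precursor of melanin-concentrating hormone, was at 673 to 2173 FPKM, while AVP was listed at 0 in all 6 libraries. AGRP ranged from 5.69 to 176 FPKM, NPY from 20.3 to 192 and POMC from 22.9 to 429 over the libraries. SIM1 stayed between 3.03 and 4.11 FPKM. Neuronal markers summed to 1523 to 1901 FPKM in the pubertal and 1710 to 1852 FPKM in the prepubertal libraries. Pubertal replicate 3 held 105 FPKM of the smooth-muscle gene TAGLN and 309 FPKM of the choroid plexus gene TTR. In the other 5 libraries TAGLN reached 22.2 FPKM and TTR 53.4 FPKM. Summed markers of smooth and skeletal muscle, of endothelium and of the anterior pituitary were higher in every pubertal library than in any prepubertal one. Smooth-muscle genes made up most of the first sum, since skeletal ACTA1 and MYL1 overlapped and CKM was at 0 in every pubertal library. CGA, at 39.4 to 62.5 FPKM, was the largest part of the pituitary sum in the pubertal libraries. TSHB was higher too, while GH1, LHB, FSHB and POU1F1 overlapped. Of 80 marker genes tested 12 had an unadjusted p under 0.05 by limma, against 5.16% of all genes, and none an adjusted one.

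None of the 7 genes passed the test between the stages, by limma with an adjusted p under 0.05 or at an unadjusted p under 0.05, and the stages overlapped for all 7. Their lowest adjusted p was 0.962 and their lowest unadjusted p 0.0880. Over all 16397 genes tested, 0% passed the adjusted threshold, 846 genes or 5.16% had an unadjusted p under 0.05, and the stages did not overlap in 9.75%. Members without a call are therefore the common outcome in these 6 libraries. The unadjusted 95% intervals of the 7 log2 differences lay within -0.57 and 0.60. For MEF2D, from -0.57 to 0.37, moderate changes in either direction are not excluded. For HDAC4, from -0.19 to 0.60, and HDAC7, from -0.05 to 0.60, moderate increases are not excluded.

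The 7 genes formed a high and a low set. HDAC5 had the highest mean over the 6 libraries with 26.5 FPKM, followed by HDAC9 with 23.7, MEF2A with 17.7 and MEF2C with 14.9 FPKM. MEF2D with 3.77, HDAC7 with 2.84 and HDAC4 with 2.82 FPKM lay well below them. MEF2D and HDAC4 were also listed with the shortest transcripts, single ones of 1643 and 2054 nt. Transcripts of the other genes had 3455 nt or more. Whether the listed lengths affect this order was not tested. Among the 14081 genes with a mean of at least 1 FPKM, whose median level was 13.1 FPKM, 70.9% were lower than HDAC5 and 13.04% were lower than HDAC4. MEF2C lay 4.04-fold above MEF2D in the geometric mean of the within-library ratios, the widest step between neighbours in this order.

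**Figure D1:**
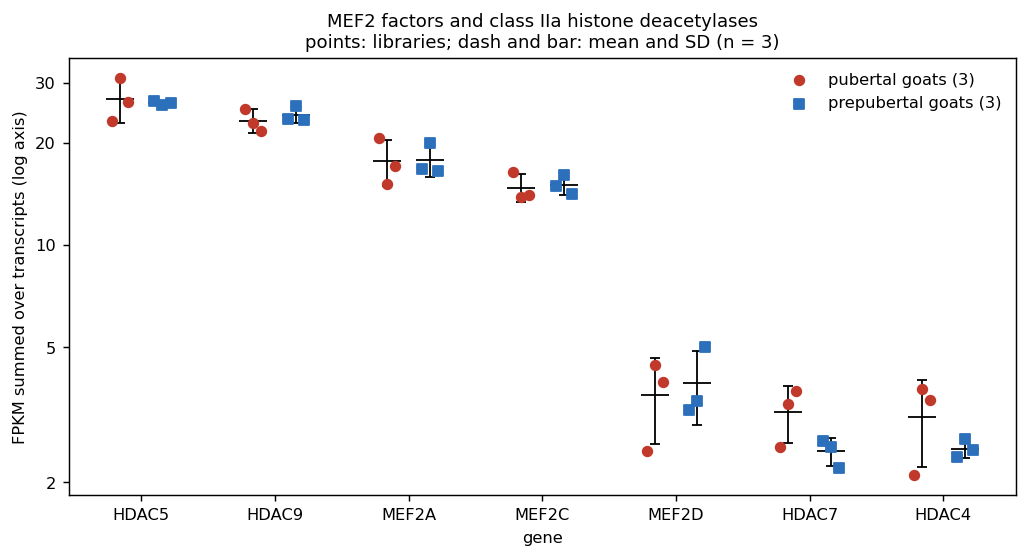
FPKM summed over transcripts (log axis) for each of the 7 genes, in order of mean level. Circles are the 3 pubertal and squares the 3 prepubertal libraries, and the dash and bar give mean and SD; HDAC5, HDAC9, MEF2A and MEF2C sit above 13 FPKM and the other members at or below 5.01 FPKM in every library, and the stages overlap for each gene.

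Neighbours in the order were compared within the libraries. HDAC9 was above MEF2A, MEF2A above MEF2C, and MEF2C above MEF2D in 6 of 6 libraries (p = 0.031 for each by an exact permutation test that flips signs, two-sided, with no smaller value possible in 6 libraries, and adjusted p = 0.0625 over 6 steps). HDAC5 was above HDAC9 in 5 of 6 libraries (exact permutation p = 0.09375), and pubertal replicate 1 was the exception. MEF2D was above HDAC7 in 5 of 6 (exact permutation p = 0.0625). HDAC7 and HDAC4 differed by less than their spread, with HDAC7 higher in 3 of 6 libraries (exact permutation p = 0.781). No step passed the threshold after adjustment. Without pubertal replicate 1 the number of steps with the same sign in every library rose from 3 to 5.

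MEF2A, a MEF2 factor found widely in brain and muscle, was listed with a single transcript of 5601 nt. Its level was 20.6, 15.1 and 17.1 FPKM in pubertal replicates 1, 2 and 3 and 16.7, 19.9 and 16.5 FPKM in the prepubertal ones. Pubertal replicate 1 and prepubertal replicate 2 were the high libraries and the stages overlapped. The means were 17.6 ± 2.75 and 17.7 ± 1.92 FPKM (SD, n = 3 each), and the log2 difference was -0.01 with an SE of 0.13 (limma, adjusted p = 0.997).

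MEF2C, needed for the development of heart muscle and of cortical neurons and also made by microglia, was at 16.4, 13.8 and 14.1 FPKM in the pubertal and 14.9, 16.1 and 14.1 FPKM in the prepubertal libraries. The same pair of libraries was high as for MEF2A. Its means of 14.7 ± 1.41 and 15.0 ± 1.01 FPKM (SD, n = 3 each) gave a log2 difference of -0.03 with a 95% interval from -0.27 to 0.21 (limma, adjusted p = 0.992). Its coefficient of variation over the 6 libraries was 7.46%, against a median of 11.4% over the 14081 genes. Summed microglia markers ranged from 331 to 396 FPKM in the pubertal and from 310 to 353 FPKM in the prepubertal libraries, and their part in the level of MEF2C was not tested.

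MEF2D, the third brain-expressed factor, had a transcript of 1643 nt at 2.47, 4.44 and 3.95 FPKM in the pubertal and 3.26, 3.47 and 5.01 FPKM in the prepubertal libraries. It was lowest in pubertal replicate 1 and highest in prepubertal replicate 3, with a coefficient of variation of 23.9%. The log2 difference was -0.10 with an SE of 0.20, which is within the spread of either group. MEF2B, the remaining gene of the family and not among the 7, lay between 0.671 and 0.956 FPKM. Summed over MEF2A, MEF2C and MEF2D the libraries held 33.4 to 39.5 FPKM.

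HDAC5, a class IIa deacetylase linked in neurons to activity-dependent export from the nucleus, was at 23.2, 31.0 and 26.3 FPKM in the pubertal and 26.5, 25.7 and 26.1 FPKM in the prepubertal libraries. The prepubertal libraries were close together, with pubertal replicate 3 among them, replicate 1 below and replicate 2 above. The means were 26.8 ± 3.93 and 26.1 ± 0.406 FPKM (SD, n = 3 each), with a log2 difference of 0.03 and an SE of 0.11 (limma, adjusted p = 0.992). The pubertal libraries thus had the larger SD for HDAC5, as they did for the other 6 genes, which was not tested. The share of all genes with a larger pubertal SD was not computed, so nothing is drawn from this.

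HDAC9, which restrains MEF2 in muscle and neurons and is also made as a short form without the deacetylase domain, was at 25.2, 22.9 and 21.6 FPKM in the pubertal and 23.5, 25.7 and 23.3 FPKM in the prepubertal libraries. It varied least of the 7, with a coefficient of variation of 6.35%. The log2 difference of -0.06 with an SE of 0.09 was smaller than the spread between replicates (limma, adjusted p = 0.971).

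HDAC4, a deacetylase known for holding back chondrocyte and neuronal MEF2 targets, was at 2.098, 3.75 and 3.50 FPKM in the pubertal and 2.37, 2.68 and 2.49 FPKM in the prepubertal libraries. Pubertal replicate 1 was the lowest of all 6, while pubertal replicates 2 and 3 were the highest. The log2 difference was 0.20 with an SE of 0.17 and a 95% interval from -0.19 to 0.60 (limma, unadjusted p = 0.271, adjusted p = 0.962).

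HDAC7, best known from endothelium and developing T cells, showed a like arrangement. Its level was 2.53, 3.41 and 3.72 FPKM in the pubertal and 2.64, 2.55 and 2.21 FPKM in the prepubertal libraries. Pubertal replicate 1 lay among the prepubertal libraries and replicates 2 and 3 above them. The means of 3.22 ± 0.613 and 2.47 ± 0.227 FPKM (SD, n = 3 each) gave a log2 difference of 0.27 with an SE of 0.14 and a 95% interval from -0.05 to 0.60 (limma, unadjusted p = 0.0880, adjusted p = 0.962).

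Both HDAC4 and HDAC7 passed an unadjusted p of 0.05 when pubertal replicate 1 was left out. Their log2 differences were then 0.40 and 0.40 (limma, unadjusted p = 0.0121 and 0.0157, adjusted p = 0.292 and 0.299), and 13.5% of all genes had an unadjusted p under 0.05 in that fit. Without pubertal replicate 3, which was high in muscle and choroid plexus genes, they were 0.13 and 0.19. Without pubertal replicate 2 they were 0.09 and 0.24. Endothelial markers were set beside HDAC7. Of all libraries, pubertal replicate 3 had both the highest marker sum, 103 FPKM, and the highest HDAC7 level. Between pubertal replicate 1, with a marker sum of 90.4 FPKM, and replicate 2, with 84.98 FPKM, the order was the reverse of that of HDAC7. The prepubertal libraries also ran in reverse order for the marker sum and HDAC7. All 9 that were tested had a positive log2 difference, 1 of them with an unadjusted p under 0.05 and none with an adjusted one, and their sum ranged from 84.98 to 103 FPKM in the pubertal and from 73.3 to 82.1 FPKM in the prepubertal libraries. None of the 9 was listed at 0, and their part in the values of HDAC7 was not tested.

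The class IIa deacetylases together held 53.0 to 61.0 FPKM per library. Their ratio to the summed MEF2 factors was 1.34, 1.83 and 1.57 in the pubertal and 1.58, 1.43 and 1.52 in the prepubertal libraries. The deacetylase sum exceeded the MEF2 sum in every library, and the lowest and the highest ratio were both pubertal. HDAC5 and HDAC9 made up most of the first sum and MEF2A and MEF2C most of the second.

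Transcript use could be compared for MEF2C, HDAC5 and HDAC9. The 7 genes had 28 transcripts listed, of which 8 were at 0 in every library, 3 were above 0 with a mean under 0.1 FPKM, and 17 were tested. MEF2A, MEF2D, HDAC4 and HDAC7 had a single transcript each, of 5601, 1643, 2054 and 4157 nt, so their isoforms were not resolved here. None of the 17 passed the test, and none had stages that did not overlap (limma over 23821 transcripts, lowest unadjusted p = 0.104, adjusted p = 0.972). Over all transcripts 4.87% had an unadjusted p under 0.05 and 9.56% had stages that did not overlap. Reads that fall on sequence common to several transcripts are shared out by the authors' software, so a transcript's value is an estimate that depends on those of its neighbours.

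MEF2C had 10 transcripts of 5957 to 6231 nt, 3 of them at 0 throughout. XM_005683423.2 took 30.7% to 45.8% of the gene's FPKM, XM_005683420.2 took 24.2% to 37.8%, and XM_013965781.1 took 16.3% to 30.9%. Together these 3 held 91.6% to 95.2% in every library. XM_005683423.2 held 34.3%, 45.8% and 30.7% in the pubertal and 40.4%, 36.8% and 42.2% in the prepubertal libraries. It was the leading form in 3 libraries, and XM_005683420.2 led in pubertal replicates 1 and 3 and in prepubertal replicate 2. XM_013965779.1 was a minor form with 1.72% to 4.79%.

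HDAC5 had 3 transcripts. XM_005693917.2 held 66.3%, 53.9% and 75.0% of the gene in the pubertal and 74.9%, 60.1% and 70.6% in the prepubertal libraries, and was the leading form in all 6. XM_005693918.2 held 22.9% to 44.0%. Both differ by 3 nt in length, 3470 against 3467 nt. Pubertal replicate 2 and prepubertal replicate 2 had the highest shares of the second form. XM_013972420.1 held up to 6.44% and was listed at 0 in pubertal replicate 3. Its share had the lowest unadjusted p of the 13 shares tested (limma on the log2 ratio of a transcript to the rest of its gene, difference -1.54, SE 0.93, unadjusted p = 0.149, adjusted p = 0.990).

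HDAC9 had 11 transcripts, 5 of them at 0 throughout and 5 with a mean of at least 0.1 FPKM. Grouped by length, a split chosen after the values were seen, those of 4013 to 4380 nt held 85.4% to 89.8% of the gene and those of 9287 to 9698 nt held 10.2% to 14.6%. The short group therefore made up most of HDAC9 in each library. Which of these encode the form without the deacetylase domain was not analysed here.

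**Figure D2:**
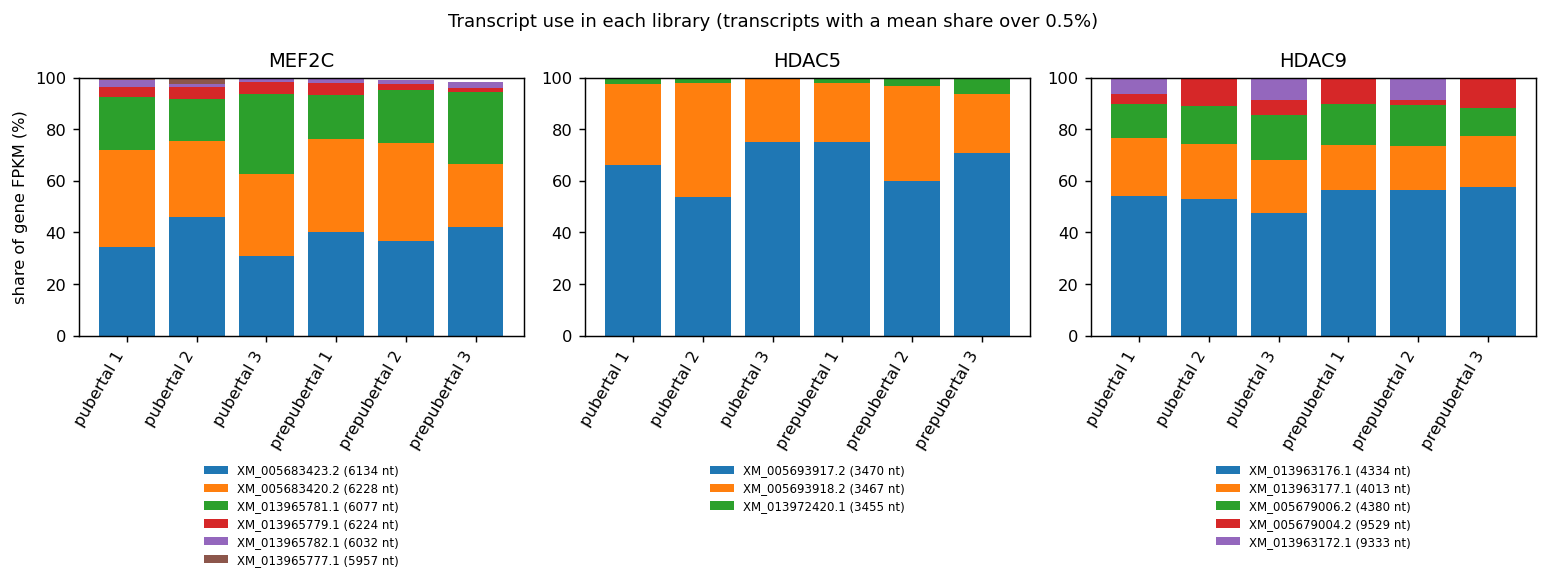
Share of the summed FPKM of MEF2C, HDAC5 and HDAC9 held by each transcript (%), for the 6 libraries, with transcripts of a mean share over 0.5%. The same transcripts lead in both stages, XM_005693917.2 for HDAC5 with 53.9% to 75.0% and XM_013963176.1 for HDAC9 with 47.5% to 57.7%, while the forms of MEF2C change places between libraries of one stage.

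Of the 13 shares tested, 2 had stages that did not overlap, both in HDAC9, against 9.48% over all 10807 shares. XM_013963176.1 of 4334 nt held 54.3%, 52.8% and 47.5% in the pubertal and 56.4%, 56.6% and 57.7% in the prepubertal libraries. It was lower in every pubertal library, as were 4.65% of all shares, with a log2 ratio difference of -0.31 and an SE of 0.20 (limma, unadjusted p = 0.179, adjusted p = 0.990). XM_013963177.1 of 4013 nt held 22.2%, 21.5% and 20.5% in the pubertal and 17.4%, 16.8% and 19.8% in the prepubertal libraries. It was higher in every pubertal library, as were 4.84% of all shares, with a log2 ratio difference of 0.31 and an SE of 0.24 (limma, unadjusted p = 0.235, adjusted p = 0.990). Shares of one gene add up to a whole, so these values are not independent of each other. None of the 13 shares had an unadjusted p under 0.05, against 4.44% over all shares.

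In FPKM, XM_013963176.1 was at 13.7, 12.1 and 10.3 in the pubertal and 13.3, 14.5 and 13.5 in the prepubertal libraries. The stages overlapped on this scale. Without pubertal replicate 1 its log2 difference moved from -0.19 to -0.28 (limma, unadjusted p = 0.0442, adjusted p = 0.465), and with the single transcripts of HDAC4 and HDAC7 it was 1 of 3 member transcripts under 0.05 in that fit, where 10.5% of all transcripts were.

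The long forms of HDAC9 alternated between libraries. XM_005679004.2 of 9529 nt was at 0.973, 2.51 and 1.31 FPKM in the pubertal and 2.42, 0.416 and 2.76 FPKM in the prepubertal libraries. XM_013963172.1 of 9333 nt was at 1.60, 0.00139 and 1.83 FPKM in the pubertal libraries, was listed at 0 in prepubertal replicate 1, and was at 2.26 and 0.000698 FPKM in prepubertal replicates 2 and 3. The second form was near or at 0 in pubertal replicate 2 and prepubertal replicates 1 and 3, where the first was highest. In prepubertal replicate 2 the second was well above the first. Both forms were present at closer levels in pubertal replicates 1 and 3, with the second higher. Their sum was 2.57, 2.51 and 3.14 FPKM in the pubertal and 2.42, 2.68 and 2.76 FPKM in the prepubertal libraries. The coefficient of variation was 55.5% and 112% for the single transcripts and 9.58% for the sum of both.

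**Figure D3:**
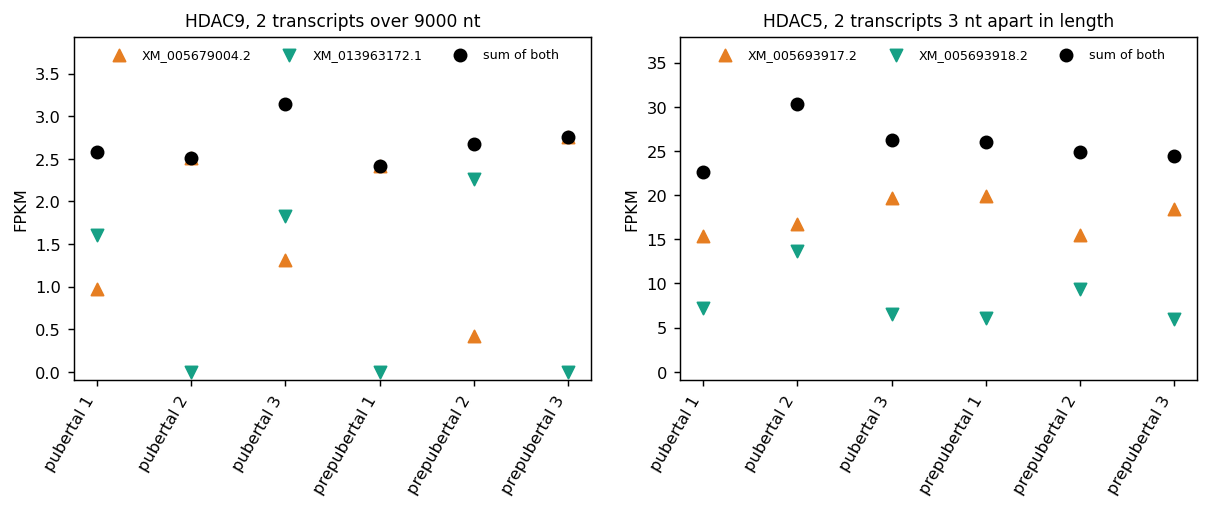
FPKM in each library of a pair of HDAC9 transcripts over 9000 nt (left) and a pair of HDAC5 transcripts 3 nt apart in length (right), with the sum of each pair as black circles. Which HDAC9 form is higher changes between libraries while their sum stays between 2.42 and 3.14 FPKM. The HDAC5 pair sums to 22.6 to 30.3 FPKM.

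Gene sums varied less than any tested transcript of MEF2C, HDAC5 and HDAC9. For HDAC5 the coefficient of variation was 9.56% for the sum and 11.5% to 77.8% for the transcripts. For MEF2C it was 7.46% against 12.4% to 35.2%. Among 3489 genes with several such transcripts, 73.2% also had a sum with a lower coefficient of variation than each transcript, so these 3 genes are ordinary in this respect.

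The libraries fell into a recurring pattern for several members, described after the values were seen. MEF2A, MEF2C and HDAC9 had their 2 highest values in pubertal replicate 1 and prepubertal replicate 2, as did 14.3% of the 14081 genes. MEF2D, HDAC4 and HDAC5 were lowest in pubertal replicate 1, as were 17.2% of the genes. Neither set separated the stages.

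Levels of the members were also compared with each other over the 6 libraries. The share of correlated pairs among all genes was not computed, so the number found here has no background beside it. Of 21 pairs, 7 had a Pearson correlation with an unadjusted exact permutation p under 0.05, and none passed after adjustment over the 21 (lowest adjusted p = 0.107 for r and 0.245 for Spearman's rho). MEF2A and MEF2C had r = 0.942 and rho = 0.829 over 6 libraries (exact permutation p = 0.00833 and 0.0583), and r was 0.510 without pubertal replicate 1 and prepubertal replicate 2. MEF2C and HDAC9 had r = 0.886 and rho = 0.886 (exact permutation p = 0.0153 and 0.0333), which fell to r = 0.443 without the same libraries. The libraries left out were those farthest from the median of the first gene, which narrows its range. The lower r therefore does not show that a relation rests on them. MEF2A and HDAC5 had r = -0.850 and rho = -0.829 (exact permutation p = 0.0125 and 0.0583). Without pubertal replicate 1 and prepubertal replicate 2 their r was -0.956. HDAC4 and HDAC7 had r = 0.854 and rho = 0.657 (exact permutation p = 0.0458 and 0.175), and r = -0.185 without pubertal replicates 2 and 3.

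Genes whose levels followed those of a member most closely were found by the root mean square difference of centred log2 values over the 6 libraries, among 14080 other genes. This measure was smallest for TNPO1 beside MEF2A (0.0117), AP1G1 beside MEF2C (0.0114) and SS18L1 beside HDAC9 (0.0137). It was 0.0162 for DDX54 beside HDAC5, 0.0381 for TNKS1BP1 beside HDAC7 and 0.0389 for MFSD2A beside HDAC4. The closest gene to MEF2D, LOC102184212, was at 0.0511. Over 6 libraries and this many genes a close match to any pattern is easily found, and nothing is drawn from it.

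The rest of the pathway was described from 6 lists with 65 genes tested of 66 listed. None passed the adjusted threshold by limma, and 2 had an unadjusted p under 0.05, both higher in the pubertal goats, or 3.08% against 5.16% of all genes in either direction and 3.51% in this one. These were NR4A1 and SIK1.

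NR4A1, a nuclear receptor gene induced by neuronal activity and a known MEF2 target that class IIa deacetylases repress, had the clearest difference. It was at 4.29, 5.56 and 5.20 FPKM in the pubertal and 2.67, 1.85 and 1.68 FPKM in the prepubertal libraries. Every pubertal library was above every prepubertal one, as in 5.91% of all genes. The means were 5.01 ± 0.655 and 2.07 ± 0.531 FPKM (SD, n = 3 each) and the log2 difference was 0.98 with an SE of 0.16 (limma, unadjusted p = 0.000233, adjusted p = 0.318, range of adjusted p over the alternatives 0.236 to 0.901). The difference stayed between 0.89 and 1.12 when each library was left out in turn.

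SIK1, a salt-inducible kinase that phosphorylates class IIa deacetylases and is itself induced by cAMP and activity, was at 11.5, 15.7 and 10.4 FPKM in the pubertal and 9.03, 6.97 and 8.55 FPKM in the prepubertal libraries. The stages did not overlap, with a log2 difference of 0.55 and an SE of 0.16 (limma, unadjusted p = 0.0104, adjusted p = 0.795, range of adjusted p over the alternatives 0.299 to 0.9999). Leaving out each library in turn gave 0.38 to 0.66.

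Among the 18 kinases of class IIa deacetylases, 8 had a positive and 10 a negative log2 difference, with a median of -0.02 against -0.00065 over all genes. CAMK2G, a calcium/calmodulin-dependent kinase II gene and the most abundant of the list, was at 78.3, 76.9 and 75.1 FPKM in the pubertal and 71.6, 70.2 and 72.4 FPKM in the prepubertal libraries. The stages did not overlap, but the log2 difference of 0.10 missed the test (limma, unadjusted p = 0.200, adjusted p = 0.962). PRKD2, a protein kinase D, had means of 1.74 ± 0.471 and 1.22 ± 0.295 FPKM (SD, n = 3 each), which overlapped.

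The 14 phosphatase and 14-3-3 genes, whose products return the deacetylases to the nucleus or hold them outside it, had 11 negative and 3 positive log2 differences and a median of -0.08. YWHAE, a 14-3-3 gene, was at 727, 538 and 557 FPKM in the pubertal and 665, 664 and 657 FPKM in the prepubertal libraries. YWHAQ, another 14-3-3 gene, had means of 456 ± 58.6 and 499.9 ± 7.54 FPKM (SD, n = 3 each). In both genes pubertal replicate 1 was the highest library and pubertal replicates 2 and 3 the lowest. PPP3CC, a catalytic subunit of calcineurin, had means of 11.9 ± 0.83 and 13.01 ± 0.315 FPKM (SD, n = 3 each), with every pubertal library below the prepubertal ones, as in 3.84% of all genes, and a log2 difference of -0.12 (limma, adjusted p = 0.962). Of 9 neuronal markers 8 also had a negative log2 difference, none with an unadjusted p under 0.05, and their part in this list was not tested.

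Without pubertal replicate 1 the number of pathway genes with an unadjusted p under 0.05 went from 2 to 12 of 65, where 13.5% of all genes were. NR4A1, SIK1, PRKD2 and JUN were among the higher ones, and CAMK2D, HDAC2, PPP2CA, PPP2CB, PPP3CA, YWHAE and YWHAQ were the lower ones. None of the 12 had an adjusted p under 0.05 in that fit. Without pubertal replicate 2 the number was 5, against 6.95% of all genes.

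In the co-repressor complex, 4 of 6 genes had a positive log2 difference and the median was 0.04. TBL1XR1, a subunit of the complex, had means of 60.2 ± 9.36 and 59.97 ± 4.43 FPKM (SD, n = 3 each). NCOR1, a core co-repressor, was at 21.1 ± 0.624 and 20.04 ± 0.457 FPKM (SD, n = 3 each) with stages that did not overlap, and a log2 difference of 0.07 (limma, adjusted p = 0.966).

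The 6 other histone deacetylases split evenly, 3 with a positive and 3 with a negative log2 difference, around a median of 0.02. HDAC2, a class I enzyme and the most abundant of them, was at 65.8, 48.3 and 49.4 FPKM in the pubertal and 58.1, 64.3 and 55.3 FPKM in the prepubertal libraries. HDAC1, its class I partner, was at 28.6, 26.6 and 30.9 FPKM in the pubertal and 26.5, 24.9 and 24.4 FPKM in the prepubertal libraries. HDAC1 was higher in every pubertal library, by 0.18 on the log2 scale with an SE of 0.09 (limma, unadjusted p = 0.0861, adjusted p = 0.962).

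Among 11 activators and co-activators of MEF2, 7 had a positive and 4 a negative log2 difference, and the median was 0.0017. KAT2B, an acetyltransferase that works with MEF2, had means of 81.7 ± 6.49 and 81.5 ± 3.98 FPKM (SD, n = 3 each). MAP2K5, the kinase above ERK5 in a cascade that activates MEF2C, was at 13.2, 12.8 and 12.9 FPKM in the pubertal and 15.7, 13.3 and 15.4 FPKM in the prepubertal libraries. Its pubertal values were all below the prepubertal ones, by a log2 difference of -0.18 with an SE of 0.10 (limma, unadjusted p = 0.111, adjusted p = 0.962). MYOCD, a co-activator of smooth muscle, was highest in pubertal replicate 3 with 0.412 FPKM, the library with the most smooth-muscle RNA, and reached 0.181 FPKM in the others.

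The 10 MEF2 targets known from neurons had 6 positive and 4 negative log2 differences and a median of 0.06. PCDH10, a protocadherin of synapses and the most abundant of them, was at 42.1 ± 3.82 and 47.1 ± 2.33 FPKM (SD, n = 3 each), with overlapping stages. JUN, an immediate early gene, was at 29.2, 34.1 and 41.4 FPKM in the pubertal and 28.5, 30.4 and 29.003 FPKM in the prepubertal libraries. Its stages overlapped too, with a log2 difference of 0.23 and an SE of 0.13 (limma, unadjusted p = 0.105, adjusted p = 0.962).

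**Figure D4:**
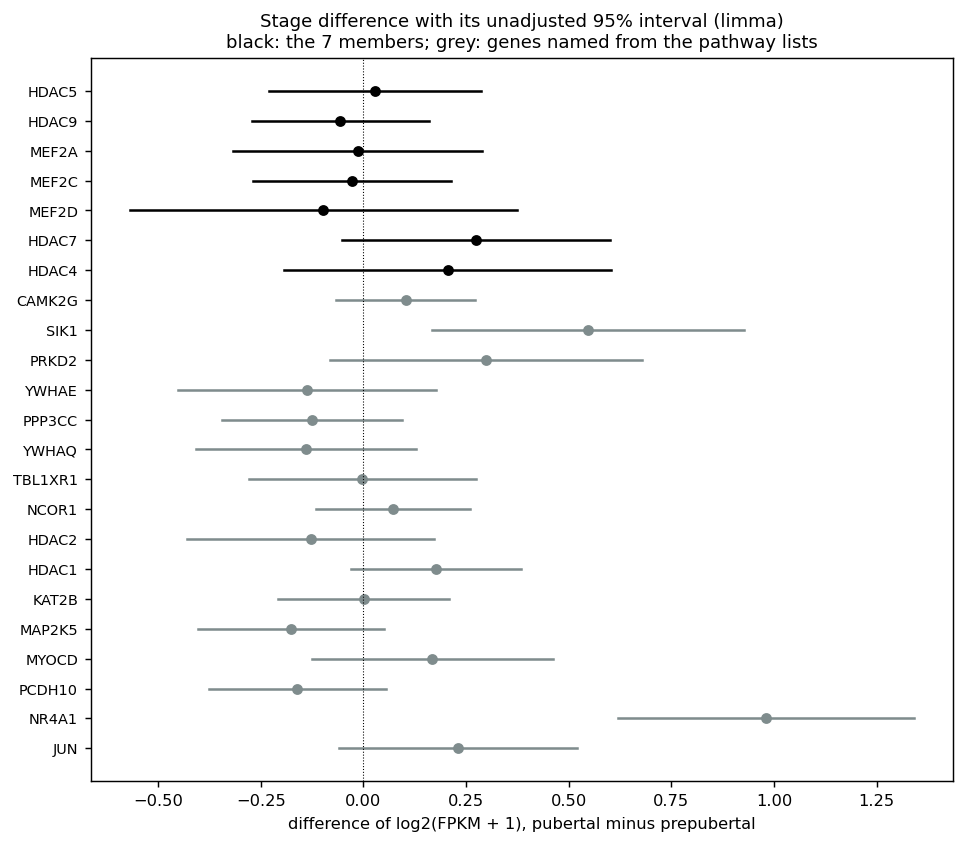
Difference of log2(FPKM + 1), pubertal minus prepubertal, with its unadjusted 95% interval from limma, for the 7 members in black and the genes named from the pathway lists in grey. Every interval of a member includes 0, and those of SIK1 at 0.55 and NR4A1 at 0.98 do not, although neither passed after adjustment.

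The study pairs 3 loci of long noncoding RNA (lncRNA) with MEF2 genes as neighbours. These are XLOC_2123676 and XLOC_2072737 with MEF2C and XLOC_1679129 with MEF2D. The paper also pairs MEF2C with further loci by correlated expression, which were not followed here. The positions of the 3 loci were not analysed. The sequence of the single transcript of XLOC_2123676 is shown because its level was lower in the pubertal goats while that of MEF2C overlapped. It is printed from the deposited lncRNA sequences without the 2 undetermined end bases, and capitals mark its longest run of A and G, 27 bases at positions 64 to 90.
TCONS_04328256: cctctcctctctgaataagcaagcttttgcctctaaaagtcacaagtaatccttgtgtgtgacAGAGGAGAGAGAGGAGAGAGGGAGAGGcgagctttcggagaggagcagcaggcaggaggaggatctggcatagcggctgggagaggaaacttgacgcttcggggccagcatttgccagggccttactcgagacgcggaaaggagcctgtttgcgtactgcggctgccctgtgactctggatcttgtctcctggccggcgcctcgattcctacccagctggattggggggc

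TCONS_04328256 has 295 nt and a GC content of 57.6%, and ranked 4 of 2943 lncRNA transcripts by mean level. It was at 67.6, 50.2 and 54.4 FPKM in the pubertal and 89.5, 103 and 74.4 FPKM in the prepubertal libraries. Every pubertal library was below every prepubertal one, as in 3.79% of lncRNA transcripts. The means were 57.4 ± 9.09 and 89.1 ± 14.5 FPKM (SD, n = 3 each), and the log2 difference was -0.62 with an SE of 0.20 (limma over 2925 lncRNA transcripts, unadjusted p = 0.0185, adjusted p = 0.943, range of adjusted p over the alternatives 0.732 to 0.995). Of all lncRNA transcripts 1.98% were lower in the pubertal goats at an unadjusted p under 0.05, and 0.0342% passed the adjusted threshold. Leaving out each library in turn gave -0.75 to -0.51, with unadjusted p between 0.0107 and 0.0761.

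Beside MEF2C, this transcript stood at 4.13, 3.64 and 3.87 times the FPKM of the gene in the pubertal libraries. In the prepubertal libraries it stood at 6.01, 6.42 and 5.28 times. The ratio was lower in every pubertal library, as the lncRNA alone was. The difference of this ratio was not tested. The lncRNA has 295 nt and the listed MEF2C transcripts have 5957 to 6231 nt. Whether FPKM can be compared over such a gap in length was not tested, so the ratio is not read as relative copy number.

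**Figure D5:**
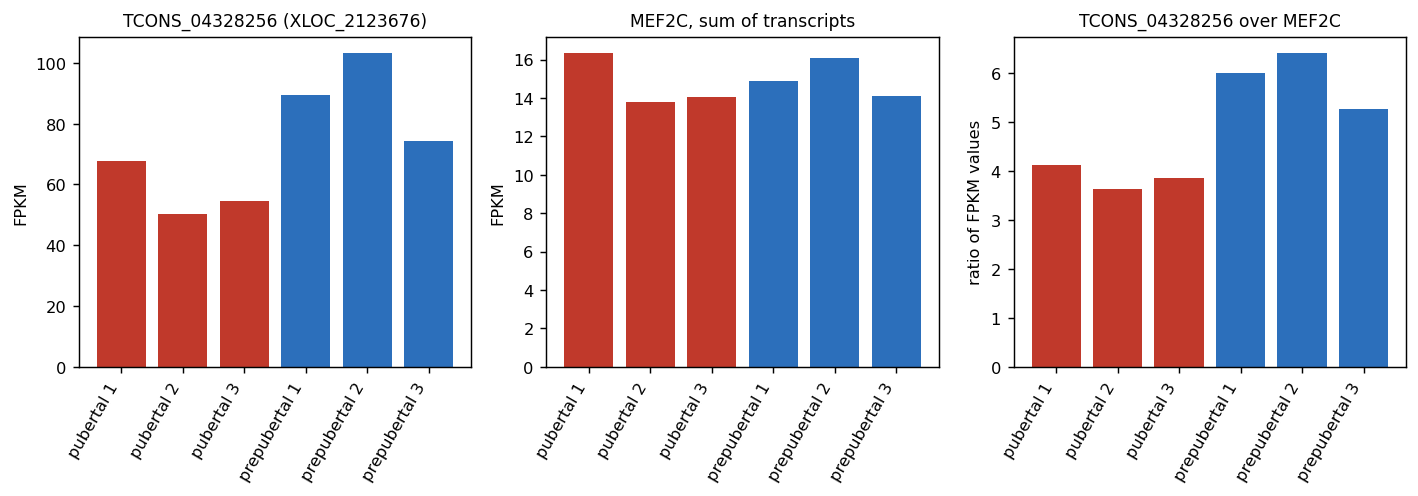
FPKM of TCONS_04328256 (left), summed FPKM of MEF2C (middle) and the ratio of both (right) in the 3 pubertal libraries (red) and the 3 prepubertal libraries (blue). The lncRNA lies at 50.2 to 67.6 FPKM in the pubertal and 74.4 to 103 FPKM in the prepubertal libraries, whereas MEF2C overlaps between 13.8 and 16.4 FPKM.

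XLOC_2072737 had 4 transcripts that summed to 5.70 to 8.17 FPKM. The most abundant was TCONS_04309028 of 923 nt and the second TCONS_04309029 of 2030 nt. Among other differences, which include their lengths, the first holds a stretch of 31 bases that the second lacks between the same flanking bases. The stretch is in capitals at positions 342 to 372, with 30 bases on each side, and the second line gives the same place without it. These sequences are shown because the stretch divides the 4 transcripts into forms with and without it.
TCONS_04309028: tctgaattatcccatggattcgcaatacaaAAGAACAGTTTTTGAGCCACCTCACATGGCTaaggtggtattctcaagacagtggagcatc
TCONS_04309029: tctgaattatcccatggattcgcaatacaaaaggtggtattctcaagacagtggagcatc

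The stretch was present in TCONS_04309028 and TCONS_04351551 and not in TCONS_04309029 and TCONS_04351553. Transcripts with it held 67.8%, 75.3% and 87.7% of the FPKM of the locus in the pubertal and 66.9%, 80.5% and 74.6% in the prepubertal libraries. The form with the stretch was thus the main one in every library, and the stages overlapped.

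TCONS_04309028 was at 3.88, 3.07 and 4.19 FPKM in the pubertal and 4.89, 4.62 and 4.502 FPKM in the prepubertal libraries. Its pubertal values were all below the prepubertal ones, with a log2 difference of -0.27 and an SE of 0.20 (limma, unadjusted p = 0.219, adjusted p = 0.943). TCONS_04309029 and TCONS_04351551 had higher pubertal and TCONS_04351553 lower pubertal means, all with overlapping stages. Together, 2 of 6 lncRNA transcripts paired with MEF2 genes as neighbours had stages that did not overlap, against 6.67% of all. An unadjusted p under 0.05 by limma was found in 1 of 6, against 3.52%. TCONS_03462626 of XLOC_1679129, of 1013 nt and paired with MEF2D, was at 0.471, 0.842 and 1.12 FPKM in the pubertal and 0.742, 0.856 and 0.608 FPKM in the prepubertal libraries, with a log2 difference of 0.05.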

How the data were processed

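Strand-specific paired-end libraries of ribosome-depleted hypothalamus RNA, 3 per stage, were aligned by the authors to the goat genome with TopHat and assembled with Scripture and Cufflinks 2.1.1. The genome build is not given in the sources used here. The deposited tables of the authors give, for each library, the FPKM of mRNA and of lncRNA transcripts, a value scaled to transcript length and mapped fragments. They come with lncRNA sequences and a comparison by Cuffdiff 2.1.1. From that comparison only transcript lengths and the link of transcripts to genes were used, and its fold changes, p-values and group means were not. Without read counts, neither a count model nor a counting interval could be had, and fragment numbers per value were not derived.

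FPKM was summed over the transcripts of each gene. Names were taken from the RefSeq annotation of ARS1.2, which covered 19083 of the 20225 genes, and nothing else was taken from it. Two-sided tests of limma 3.58.1 (R 4.3.3; lmFit, then eBayes with trend) were run on log2(FPKM + 1) of all features with a mean of at least 0.1 FPKM, separately for gene sums, mRNA transcripts and lncRNA transcripts. Shares were fitted as the log2 ratio of a transcript to the rest of its gene after adding 0.1 FPKM to each, in genes of at least 1 FPKM. Benjamini-Hochberg adjustment ran over all features of a fit, with a threshold of 0.05. With 3 libraries a stage, exact permutation of the stages reaches 0.1 at the lowest. Sums, shares and correlations were computed in Python 3.11.15 (scipy 1.17.1, pandas 2.3.3, numpy 2.4.6), and plots with matplotlib 3.10.9. The limma script was tested on simulated data.

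The members and the gene lists were chosen with earlier results of these data known. Named genes were the 7 members with their transcripts, the 3 lncRNA loci, and in each pathway list the gene of the highest mean level and the 2 genes with the smallest p, since none passed the adjusted threshold. A gene that this rule names is not reported here. MEF2B, the marker genes, the grouping of transcripts by length, the paired sums, the library patterns and the genes called without a library were chosen after values were seen. Alternatives were pseudocounts of 0.1 (0.01 for shares), no minimum and a minimum of 1 FPKM (5 for the gene sum in shares), no trend, a replicate block, quantile normalization, median centring, and leaving out each library in turn. Unused columns of per-sample values numbered 0.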

Additional observations from a re-analysis of the deposited data

How the results depend on the processing

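The 3 libraries per stage and the FPKM unit limit these results, because neither the depth of a value nor the spread between goats is well known. Replicates stand for separate goats, and stage cannot be told apart from age, body weight or follicular phase. In 695 recomputations of 56 single log2 differences, 640 values kept their direction and their side of the threshold and 55 turned in direction. In 35 of the 56 there was no turn. No adjusted p was under 0.05 in any setting, the lowest being 0.236 for NR4A1 without pubertal replicate 1.

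Leaving out each library in turn, the number of members with an unadjusted p under 0.05 ranged from 0 to 2 for gene sums and 0 to 3 for transcripts, reached without pubertal replicate 1. For pathway genes it ranged from 2 to 12 and for paired lncRNA transcripts from 0 to 2, with 2 without prepubertal replicate 3. The lncRNA count was 0 with a pseudocount of 0.1 and 0 with quantile normalization, against 1. The number of steps in the order of levels with one sign in every library ranged from 3 to 5. The cause of these shifts was not tested.

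Deviations of same-numbered libraries had correlations of -0.0246, -0.101 and 0.0752. Those of differently numbered libraries lay between -0.118 and 0.157. These values cannot show whether the replicate numbers pair the libraries. With the replicate number as a block the counts with an unadjusted p under 0.05 were 0 for gene sums, 0 for transcripts, 0 for shares, 3 for pathway genes and 1 for lncRNA transcripts, and no adjusted call changed.

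Under settings that kept all 6 libraries, 6 recomputed log2 differences turned in direction. These were -0.038 with quantile normalization and -0.0159 with median centring for XM_005683420.2, 0.0289 with a pseudocount of 0.1 for XM_005679004.2, -0.0202 with quantile normalization for XM_005679006.2, 0.043 with quantile normalization for TBL1XR1, and -0.0117 with median centring for KAT2B. Leaving out 1 library turned the direction among gene sums for MEF2A (-0.13 to 0.0828), MEF2C (-0.10 to 0.0202), MEF2D (-0.23 to 0.0967), HDAC5 (-0.0778 to 0.12), TBL1XR1 (-0.13 to 0.062) and KAT2B (-0.0535 to 0.0602). Leaving out 1 library turned the direction among transcripts for XM_005683420.2 (-0.19 to 0.15), XM_013965781.1 (-0.17 to 0.19), XM_013965782.1 (-0.0859 to 0.0522), XM_005693917.2 (-0.15 to 0.0239), XM_005693918.2 (-0.0221 to 0.46), XM_005679004.2 (-0.51 to 0.20) and XM_005679006.2 (-0.14 to 0.14). Leaving out 1 library turned the direction among transcript shares for XM_005683420.2 (-0.23 to 0.22), XM_005683423.2 (-0.45 to 0.0091), XM_013965781.1 (-0.29 to 0.29), XM_013965782.1 (-0.22 to 0.13), XM_005693917.2 (-0.54 to 0.13), XM_005679004.2 (-0.81 to 0.57) and XM_005679006.2 (-0.10 to 0.23). Leaving out 1 library turned the direction among lncRNA transcripts for TCONS_03462626 (-0.0738 to 0.19). The cause of these turns was not tested.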
